A study of Mus musculus with 18 samples.

Results

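MHC class II molecules show peptides from engulfed material to CD4 T cells, and differences in these molecules between graft and host are a classical target of graft-versus-host disease (GvHD). The genes described here are 10 that build, load and switch on class II: H2-Aa and H2-Ab1, the alpha and beta chain of the I-A molecule, H2-Eb1, the beta chain of I-E, the invariant chain Cd74, which guards the empty groove, the peptide editor DM (H2-DMa, H2-DMb1, H2-DMb2), its inhibitor DO (H2-Oa, H2-Ob), and Ciita, the coactivator that turns the whole set on. They were chosen by name, and each was read from the array probe set that carries its symbol alone. That gave 9 measured members of 10, among 22180 measured genes, each with 1 such probe set. Values are log2 signals, and "called" means an adjusted p under 0.05. The symbol of Cd74 stands only on a probe set shared with another gene, so no value is given for it.

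The samples were ilea of 18 mice taken 21 days after transplant, each on its own whole-transcript array. All were B10.BR recipients, 8 to 12 weeks old at transplant, irradiated with 11 Gy on the day before it, and all received 5000000 C57Bl/6 marrow cells without T cells. Nothing else was transplanted into the marrow-only mice, of which 4 were given vehicle and 5 indole-3-carboxaldehyde (ICA). The T cell mice, 4 on vehicle and 5 on ICA, were given 2000000 purified T cells of the donor strain as well, the cells that cause GvHD. ICA, a tryptophan-derived indole that binds the aryl hydrocarbon receptor, was gavaged daily at 150 mg/kg from the day before transplant, and the vehicle held DMSO (20%), PEG400 (40%) and citric acid (2%).

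Class II is made at all times by B cells, macrophages and dendritic cells, and interferon gamma, by inducing Ciita, can switch it on in other cells, among them gut epithelium. B10.BR and C57Bl/6 mice carry different H2 haplotypes, k and b. Blood cells of the transplanted mice descend largely from the graft, whereas the epithelium is the host's. Probes are designed on a reference strain and their sequences were not analysed here, so the signal of an H2 gene can also shift with the share of donor and host cells. In a piece of tissue, fewer cells of a type and less RNA per cell cannot be told apart.

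The promoters of class II genes share an X box and a Y box a short distance before the gene, the docking sites of the factors on which Ciita sits. They are shown because these boxes are where Ciita acts, and the windows of the measured members differed in which of the letters searched for below they held. RefSeq windows of 300 bases (250 before to 50 after the gene start, build GRCm38.p6, a C57BL/6J assembly and so the donor's haplotype at H2) were found for 7 members, H2-Aa, H2-Eb1, H2-DMa, H2-DMb1, H2-DMb2, H2-Oa and H2-Ob, and for H2-Eb2, a class II beta chain gene outside the chosen set. Below, 77 bases around the Y box are given 5′ to 3′ on the gene's strand, with capitals for TGATTGG (Y box), AACNNATGNTG (X box) and TGACGTCA (X2 box, a cyclic AMP response element).
H2-Aa: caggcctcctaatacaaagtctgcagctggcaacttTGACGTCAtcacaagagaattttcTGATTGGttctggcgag
H2-Eb1: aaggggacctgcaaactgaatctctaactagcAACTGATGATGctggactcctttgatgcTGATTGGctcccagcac
H2-DMb1: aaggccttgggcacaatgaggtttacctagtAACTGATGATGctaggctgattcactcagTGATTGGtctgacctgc
H2-DMb2: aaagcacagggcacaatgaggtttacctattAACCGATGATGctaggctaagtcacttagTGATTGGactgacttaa
H2-Oa: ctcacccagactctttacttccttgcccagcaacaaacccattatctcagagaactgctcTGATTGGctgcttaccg
H2-Ob: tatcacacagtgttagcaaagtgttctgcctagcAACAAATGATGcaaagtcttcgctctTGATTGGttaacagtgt
H2-Eb2: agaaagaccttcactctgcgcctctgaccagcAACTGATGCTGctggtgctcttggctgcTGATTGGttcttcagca
These stretches lie at chr17:34287857-34287933 (H2-Aa, minus strand), chr17:34305746-34305822 (H2-Eb1), chr17:34153068-34153144 (H2-DMb1), chr17:34145097-34145173 (H2-DMb2), chr17:34092274-34092350 (H2-Oa), chr17:34238786-34238862 (H2-Ob) and chr17:34325513-34325589 (H2-Eb2), all others on the plus strand. The Y box stood 45 to 102 bases before the gene start in these 7 windows. The X box letters began 26 to 29 bases before the Y box in the 5 that held the letters of both. Of 32851 windows of all genes, searched on both strands, 7.82% held the Y box letters, 0.566% the X box letters and 1.79% the X2 box letters. An X box 10 to 40 bases before a Y box stood in 5 windows (0.0152%), those of H2-DMb1, H2-DMb2, H2-Eb1, H2-Eb2 and H2-Ob. The X box letters were read from these 5 windows, as the 11 bases before the Y box that recur with at least 8 of them identical, so this share describes the letters and is no test. The H2-Aa window held the X2 letters but not these X letters, the H2-Oa window only the Y box letters. Neither of the 2 windows of H2-DMa held any of these letters. An X box spelled otherwise was not searched for, so these windows are not shown to lack one.

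The first question was what donor T cells changed in these genes under vehicle. The I-A alpha chain gene H2-Aa rose 1.62-fold, and the other chain genes and Ciita lay higher without passing the test, while both DO genes lay lower without passing. H2-Aa stood at 9.84, 10.19, 9.64 and 10.03 (log2) in the 4 marrow-only mice and at 10.56, 10.54, 10.66 and 10.73 in the 4 T cell mice. Every T cell mouse was above every marrow-only mouse. The difference was 0.70 ± 0.12 in log2 (SE, adjusted p = 0.00565 over all genes, limma), and H2-Aa was the 1 of 9 members called in this comparison, in which 1.47% of all genes were called (0.794% up and 0.681% down).

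H2-Ab1, the partner chain of H2-Aa, was 11.91, 11.96, 11.35 and 11.74 in marrow-only mice given vehicle and 12.25, 12.30, 12.43 and 12.39 in T cell mice given vehicle. Again the groups did not overlap, and the difference was 0.60 ± 0.17 (adjusted p = 0.0778). H2-Eb1 was 9.23, 9.12, 8.71 and 8.98 against 9.25, 9.47, 9.65 and 9.62. Its groups were separated by 1 narrow gap, with a difference of 0.49 ± 0.15 (adjusted p = 0.117). Ciita was 8.29, 8.41, 7.94 and 8.23 against 8.61, 8.65, 8.70 and 8.70. The T cell mice lay close together (SD 0.043) and above all marrow-only mice, with a difference of 0.45 ± 0.16 (adjusted p = 0.191). In all, 4 of 9 members did not overlap between the groups, all 4 with the T cell mice on top, against 10.5% of all genes in either direction and 6.33% with the T cell mice on top. An unadjusted p under 0.05 was reached by the same 4 members (13% of all genes), and 7 of 9 differences were above 0 (51.9% of all genes). The median difference of the members was 0.38 against 0.01 for all genes. The members were not independent of each other, so their counts, here and below, are not counts of separate observations.

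The genes for peptide editing moved less. H2-DMa, the alpha chain of DM, was 9.78, 9.92, 9.16 and 9.50 in marrow-only mice and 9.83, 10.02, 10.13 and 9.90 in T cell mice given vehicle. The marrow-only mice spread widely and the groups overlapped, with a difference of 0.38 ± 0.21 (adjusted p = 0.466). H2-DMb1 was 6.97, 6.84, 6.67 and 6.84 against 7.06, 6.94, 7.37 and 7.13, and H2-DMb2 was 7.24, 7.04, 6.60 and 6.97 against 7.11, 6.69, 7.16 and 7.35. These neighbouring copies of the DM beta chain gene differed by 0.30 ± 0.16 and 0.12 ± 0.17 (adjusted p = 0.465 and 0.855). H2-Oa was 6.91, 6.64, 6.67 and 6.72 in marrow-only mice and 6.36, 6.60, 6.59 and 6.82 in T cell mice, and H2-Ob was 6.52, 6.22, 5.77 and 6.33 against 5.97, 5.84, 5.84 and 6.03. In H2-Ob 3 marrow-only mice lay above all T cell mice and 1 below them. H2-Oa and H2-Ob, the chains of DO, which is known from B cells above all, differed by -0.14 ± 0.12 and -0.29 ± 0.16 (adjusted p = 0.705 and 0.495). All 5 overlapped between the groups.

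**Figure D1:**
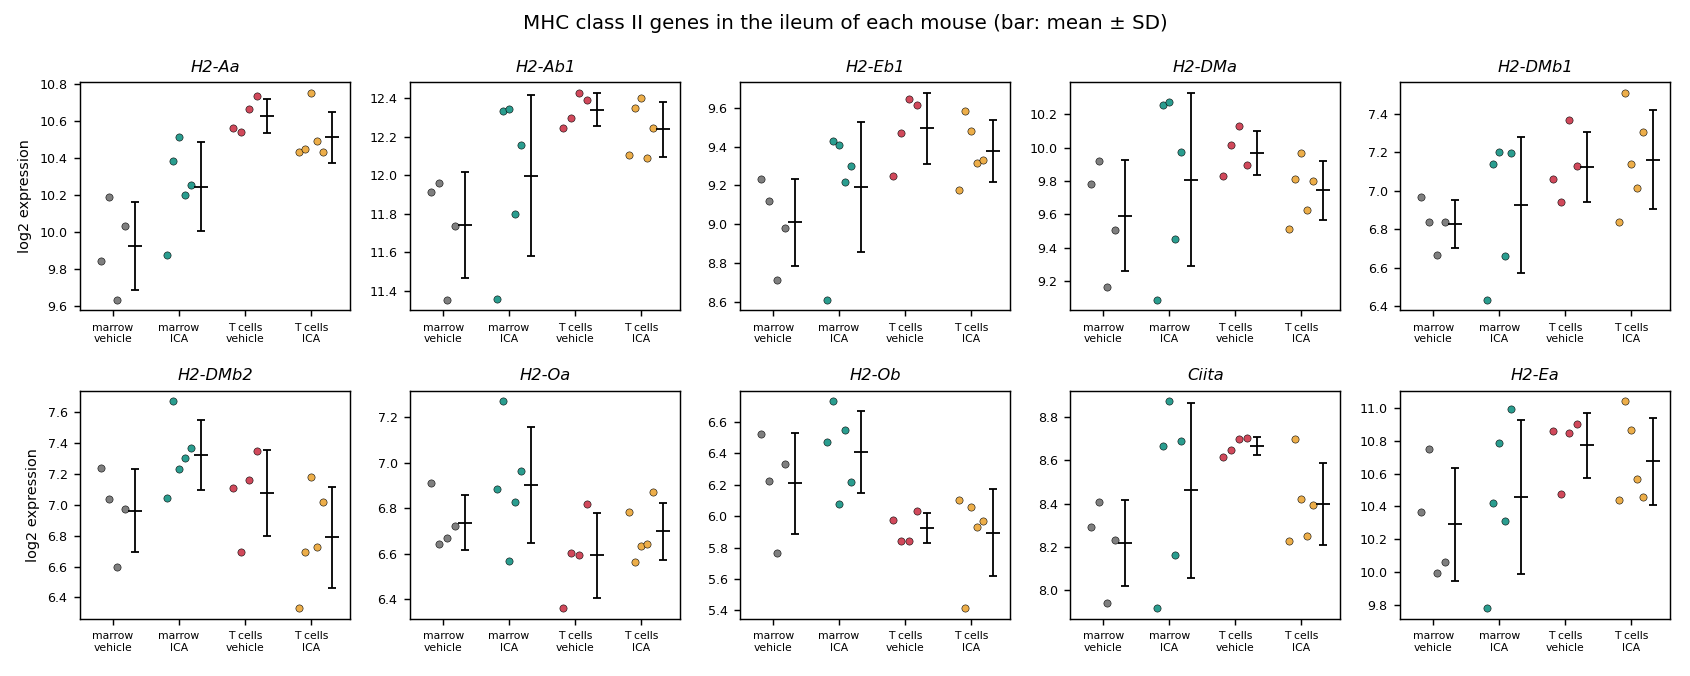
Log2 expression (y axes) of the 9 measured members and of H2-Ea in each of 18 mice by group (x axes), with group mean ± SD beside the points. H2-Aa, H2-Ab1, H2-Eb1 and Ciita are higher in all 4 T cell mice given vehicle than in the 4 marrow-only mice given vehicle, while H2-Ob tends to the lower part of its range in both T cell groups.

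The same graft comparison was made in an independent set of mice, those given ICA. None of the 9 members was called there (limma), where 3.12% of all genes were, and 3 of 9 had an unadjusted p under 0.05, against 16.6% of all genes. H2-Aa was 9.88, 10.38, 10.51, 10.20 and 10.26 in marrow-only mice and 10.43, 10.45, 10.75, 10.49 and 10.43 in T cell mice. The groups overlapped through marrow-only ICA mouse 3, and the difference was 0.27 ± 0.11 (adjusted p = 0.214). H2-Ab1 was 11.36, 12.33, 12.35, 11.80 and 12.15 without T cells and 12.10, 12.35, 12.40, 12.09 and 12.25 with them, and H2-Eb1 was 8.61, 9.43, 9.41, 9.22 and 9.30 against 9.17, 9.58, 9.48, 9.32 and 9.33. In both genes mouse 1 of the marrow-only group lay far below the others. H2-Ab1 and H2-Eb1 differed by 0.24 ± 0.15 and 0.18 ± 0.13 (adjusted p = 0.455 and 0.549). Ciita was 7.92, 8.67, 8.87, 8.16 and 8.69 without T cells and 8.23, 8.70, 8.42, 8.25 and 8.39 with them. The marrow-only mice spanned the whole range of the T cell mice, and the difference was -0.06 ± 0.14 (95% interval -0.36 to 0.24). Of the 9 members 4 lay above 0 (47.6% of all genes did) and the groups overlapped for all 9, whereas 3.33% of all genes had groups that did not overlap. The median difference was -0.06 for the members and -0.01 for all genes.

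H2-Oa was 6.88, 7.27, 6.57, 6.82 and 6.96 without T cells and 6.78, 6.56, 6.63, 6.64 and 6.87 with them, a difference of -0.20 ± 0.11 (adjusted p = 0.377). H2-DMa was 9.09, 10.26, 10.27, 9.45 and 9.97 against 9.51, 9.81, 9.97, 9.63 and 9.80. The marrow-only mice again enclosed the T cell mice, and the difference was -0.07 ± 0.18 (adjusted p = 0.912). The lowest p among members under ICA belonged to a DO and a DM chain gene, both lower with T cells. H2-Ob was 6.47, 6.73, 6.07, 6.55 and 6.22 in marrow-only mice given ICA and 6.10, 5.41, 6.06, 5.93 and 5.97 in T cell mice given ICA. The groups met only between 6.07 and 6.10, and the difference was -0.51 ± 0.15 (adjusted p = 0.0616). H2-DMb2 was 7.05, 7.67, 7.23, 7.31 and 7.37 against 6.33, 6.69, 7.18, 6.73 and 7.02. Its difference was -0.54 ± 0.16 (adjusted p = 0.0673), while its copy H2-DMb1, at 6.44, 7.14, 7.20, 6.66 and 7.20 without T cells and 6.84, 7.51, 7.14, 7.02 and 7.31 with them, differed by 0.24 ± 0.15 (adjusted p = 0.451). An earlier look at these same data had set 3 arrays apart, mouse 3 of the marrow-only vehicle group and mouse 1 of each ICA group. Without them both H2-Ob and H2-DMb2 were called, at -0.55 (adjusted p = 0.0281) and -0.49 (adjusted p = 0.0387). Since the arrays were picked from these data, these calls are no further evidence.

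Averaged over both treatments (9 T cell against 9 marrow-only mice, the same mice as above and so no further evidence), 4 of 9 members were called. H2-Aa rose by 0.48 ± 0.08 (adjusted p = 0.000896), H2-Ab1 by 0.42 ± 0.11 (adjusted p = 0.0251) and H2-Eb1 by 0.33 ± 0.10 (adjusted p = 0.049), and H2-Ob fell by 0.40 ± 0.11, or 1.32-fold (adjusted p = 0.0302). Of all genes 7.21% were called in this average, 3.58% up and 3.62% down. An unadjusted p under 0.05 was reached by 5 of 9 members (19.9% of all genes), and 6 of 9 differences were above 0 (49.5% of all genes). Among these 4 called members, the I-A and I-E chain genes lay above 0 and the DO gene below it. Outside the set, the beta chain gene H2-Eb2 was called down in this average (-0.57, adjusted p = 0.0263). The I-E alpha chain gene H2-Ea was not called (0.35, adjusted p = 0.155). H2-DMa, H2-DMb1, H2-DMb2, H2-Oa and Ciita, with differences between -0.21 and 0.27, were not called. H2-Eb1 missed the threshold in 12 of the 18 omissions of 1 mouse (highest adjusted p = 0.106) and H2-Ob in 7 (0.0746), whereas H2-Aa kept its call in all 18 (0.00319). H2-Ab1 missed it without mouse 3 of the marrow-only vehicle group (0.0548) or of the T cell vehicle group (0.0535).

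The second question was what ICA changed. No member was called in T cell mice or in marrow-only mice (limma), where 0.0135% and 0.00451% of all genes were. In T cell mice 0 of 9 members reached an unadjusted p under 0.05 (6.89% of all genes did), and the differences lay between -0.29 and 0.11, 2 of 9 of them above 0 (46.6% of all genes). For all 9 members the ICA and vehicle groups overlapped (2.89% of all genes did not). The 95% interval of the ICA difference ran from -0.36 to 0.13 for H2-Aa, from -0.43 to 0.23 for H2-Ab1 and from -0.58 to 0.05 for Ciita, so changes within these bounds were not resolved with these mice. Among T cell mice the SD of Ciita was 0.19 with ICA and 0.043 with vehicle, and 1 of the ICA mice reached the range of the vehicle mice while the others lay below it.

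In marrow-only mice all 9 differences were above 0 (53.5% of all genes were), from 0.10 for H2-DMb1 to 0.36 for H2-DMb2, and the members were not independent of each other. H2-Aa differed by 0.32 ± 0.12 and H2-DMb2 by 0.36 ± 0.17, the 2 members with an unadjusted p under 0.05 (adjusted p = 0.617 and 0.655), where 7.52% of all genes had one. All 9 overlapped between these groups (2.18% of all genes did not). The T cell difference lay lower under ICA than under vehicle for all 9 members, with interaction terms from -0.65 to -0.06 (44.8% of all genes were above 0). None was called, and neither was any other gene (0%). For H2-DMb2 it was -0.65 ± 0.24, for Ciita -0.51 ± 0.21 and for H2-Aa -0.43 ± 0.16 (adjusted p = 0.71, 0.724 and 0.71). These 3 had an unadjusted p under 0.05, against 6.68% of all genes. This comparison uses all 4 groups and so shares its mice with those above.

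**Figure D2:**
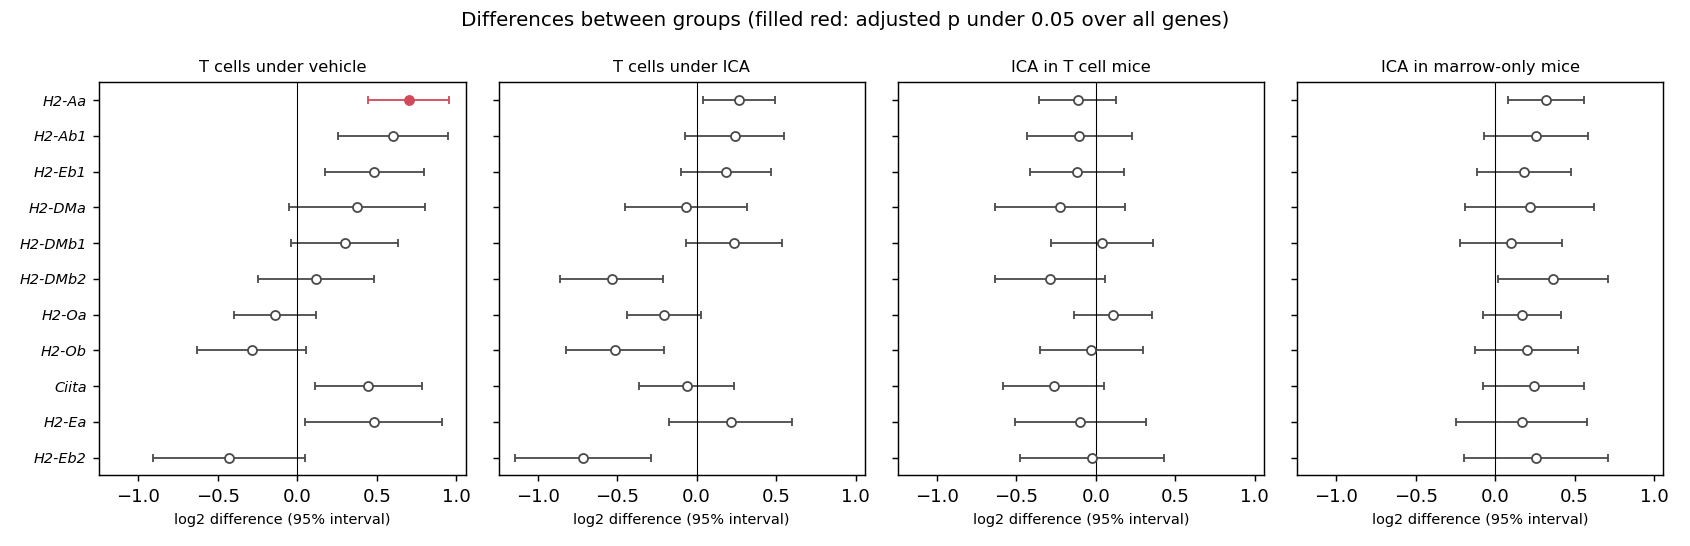
Differences in log2 with 95% intervals (x axes) for 9 members, H2-Ea and H2-Eb2 (y axis) in 4 comparisons, filled red where the adjusted p over all genes was under 0.05. H2-Aa under vehicle is the 1 filled point. The points for H2-DMb2, H2-Ob and H2-Eb2 lie left of 0 under ICA while those of the I-A and I-E chains lie right of it.

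The order of the 4 groups was the same for H2-Aa, H2-Ab1 and H2-Eb1, from marrow-only vehicle through marrow-only ICA and T cells with ICA to T cells with vehicle. Mean H2-Aa ran 9.93 ± 0.24 (SD, n = 4), 10.25 ± 0.24 (SD, n = 5), 10.51 ± 0.14 (SD, n = 5) and 10.63 ± 0.09 (SD, n = 4). No step between neighbours in this order passed the test (adjusted p from limma = 0.617, 0.214 and 0.903 for H2-Aa). For H2-Ob the T cell groups came first in order, with T cell ICA at 5.90 ± 0.28 and T cell vehicle at 5.92 ± 0.09 lowest and marrow-only ICA at 6.41 ± 0.26 highest. Ciita was lowest in marrow-only mice given vehicle (8.22 ± 0.20) and highest in T cell mice given vehicle (8.67 ± 0.04), with both ICA groups between them. Values are compared across mice within a gene only, because probe sets differ in brightness.

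H2-Ea, the alpha chain of I-E, differs between donor and host. Mice of the b haplotype, such as the C57Bl/6 donors, carry a deletion that silences this gene, and RefSeq lists it in the C57BL/6J assembly as a transcribed pseudogene, whereas k haplotype mice such as B10.BR make I-E. H2-Ea stood at 10.37, 10.75, 9.99 and 10.06 in marrow-only mice given vehicle and at 10.86, 10.47, 10.85 and 10.90 in T cell mice given vehicle. The groups overlapped through 1 T cell mouse, and the difference was 0.48 ± 0.21 (adjusted p = 0.315). Under ICA it was 0.21 ± 0.19 (adjusted p = 0.632). The measured differences of H2-Ea thus resembled those of H2-Eb1 in size, 0.48 beside 0.49 and 0.21 beside 0.18. H2-Eb2 fell over both treatments, by 0.57 ± 0.15 (adjusted p = 0.0263), although it was not called under vehicle (-0.43 ± 0.23) or under ICA (-0.71 ± 0.20, adjusted p = 0.0618). Its call over both treatments was lost without mouse 1 of either vehicle group.

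Pooled over the 18 mice, deviations from the group mean in one class II gene went with those in most of the others. After the group means were taken out, H2-Ab1 correlated across the 18 mice with H2-DMa at r = 0.97, with Ciita at 0.93, with H2-Eb1 at 0.92, with H2-Aa at 0.84 and with H2-DMb1 at 0.82. H2-DMb2 followed less closely (0.60). H2-Oa and H2-Ob stood apart, with r of 0.12 and 0.06 to H2-Ab1 and 0.58 to each other. These are descriptions over shared arrays, with no test. The marrow-only ICA mice spread most and so weigh most in these r. The SD of H2-Ab1 was 0.42 there, against 0.275 in marrow-only vehicle, 0.084 in T cell vehicle and 0.141 in T cell ICA mice. For Ciita it was 0.403 there, against 0.198, 0.043 and 0.188. No r was computed for single groups. Marrow-only ICA mouse 1 was above its group mean in 1 of 9 members and marrow-only vehicle mouse 3 in 0 of 9, and both are among the arrays set apart. Their mean of H2-Aa, H2-Ab1 and H2-Eb1 lay 0.53 and 0.33 below that of their group. Without all 3 such arrays the H2-Aa difference under vehicle was 0.60 (adjusted p from limma = 0.00203). H2-Ab1 and H2-Eb1 then passed the threshold, at 0.47 (adjusted p = 0.0267) and 0.39 (adjusted p = 0.0448). Because these arrays were picked from the same data, the calls without them are no further evidence.

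**Figure D3:**
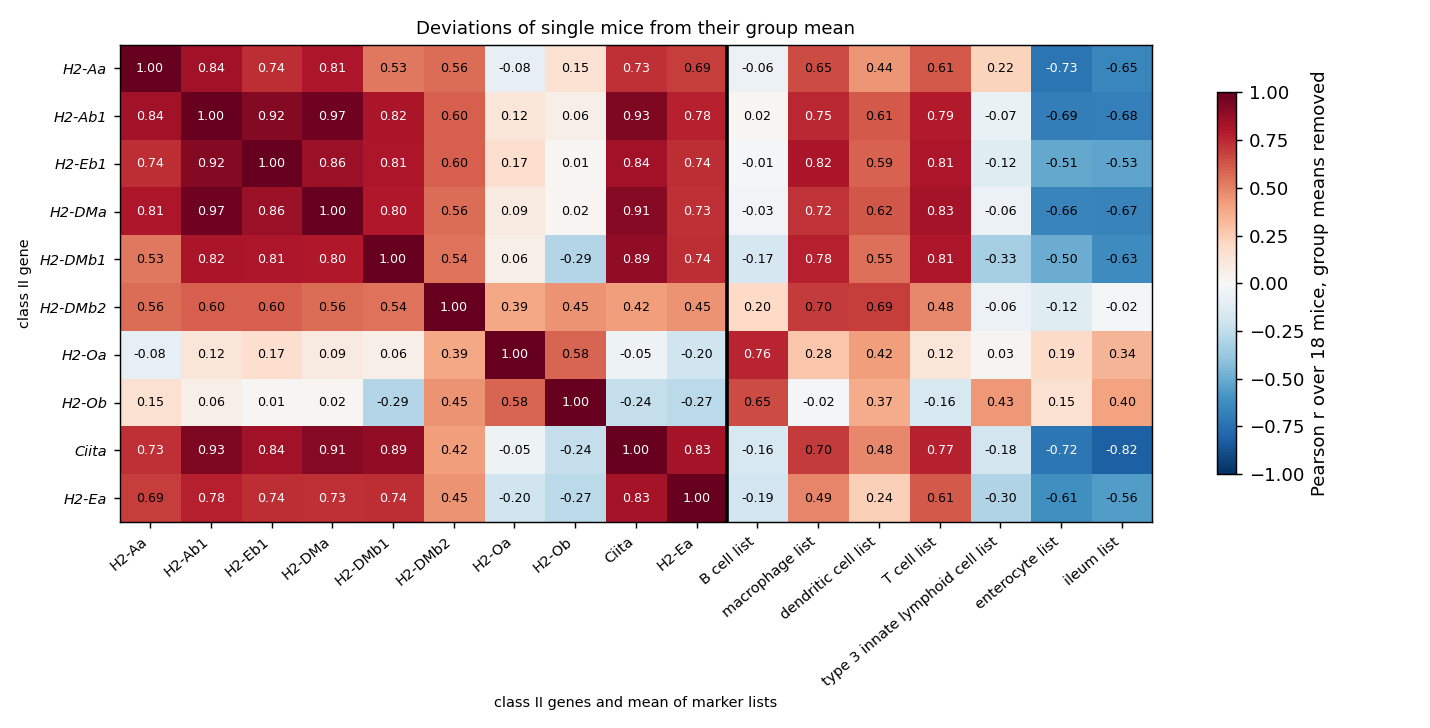
Pearson r over 18 mice, group means removed, between class II genes (left of the black line) and of each gene with the mean of each marker list (right of it). The genes H2-Aa to H2-DMb1, Ciita and H2-Ea form 1 block of positive values. Among the marker lists, H2-Oa and H2-Ob have their highest r with the B cell list (0.76 and 0.65), with the dendritic cell list at 0.42 and 0.37. The ileum list stands at 0.34 and 0.40 and the type 3 innate lymphoid cell list at 0.03 and 0.43.

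Markers of immune cells, those that carry class II among them, moved with the graft as well, in comparisons where 1.47% of all genes were called under vehicle and 3.12% under ICA. Of 10 macrophage markers, 4 rose and 0 fell under vehicle (median difference 0.65), among them Mrc1, the mannose receptor, by 0.95 ± 0.16 (adjusted p = 0.00386) and Csf1r, the growth factor receptor of macrophages, by 0.92 ± 0.19 (adjusted p = 0.0181). Cd14, the 1 of these 10 below 0 in each comparison, differed by -0.21 ± 0.19 under vehicle (adjusted p = 0.716) and -0.57 ± 0.17 under ICA (adjusted p = 0.0683). The macrophage mean ranged from 8.31 to 8.60 in marrow-only and from 8.81 to 9.28 in T cell mice given vehicle. In the corresponding ICA groups it ranged from 8.33 to 8.90 and from 8.67 to 9.22. Of 9 B cell markers, 0 rose and 3 fell under vehicle (median -0.61), for example Cd79a, a signalling chain of the B cell receptor, by 1.23 ± 0.27 (adjusted p = 0.0258). Their mean ranged from 6.25 to 6.48 in marrow-only and from 5.73 to 5.94 in T cell mice given vehicle, and from 5.97 to 7.14 and 5.82 to 6.31 under ICA. Of 9 dendritic cell markers none was called under vehicle (median 0.00), where 1 had an unadjusted p under 0.05 (13% of all genes did). Under ICA Xcr1, a chemokine receptor of cross-presenting dendritic cells, fell by 0.50 ± 0.13 (adjusted p = 0.0354). Clec10a, a lectin of dendritic cells and macrophages on the same list, lay the other way, by 0.70 ± 0.21 under vehicle (adjusted p = 0.111) and 0.66 ± 0.19 under ICA (adjusted p = 0.0654), and rose over both treatments by 0.68 ± 0.14 (adjusted p = 0.00524). Under ICA 2 macrophage markers rose and 4 B cell markers fell. Of 8 T cell markers 4 rose under vehicle, including Cd8a by 2.02 ± 0.25 (adjusted p = 0.000268), and 0 fell. Under ICA 2 of them rose and 1 fell, Cd4, the co-receptor that binds class II, by 0.71 ± 0.19 (adjusted p = 0.0448), and Cd4 differed by -0.16 ± 0.21 under vehicle (adjusted p = 0.83). The T cell mean ranged from 6.65 to 7.20 in marrow-only and from 7.61 to 8.53 in T cell mice on vehicle, and from 6.79 to 7.76 and 7.56 to 8.34 on ICA. Of 5 markers of type 3 innate lymphoid cells, gut lymphocytes that can carry class II, Il23r, a cytokine receptor chain, fell in both comparisons. It fell by 0.71 ± 0.16 under vehicle and 0.77 ± 0.15 under ICA (adjusted p = 0.0315 and 0.00495), with no other call there. The signal of Il23r was low, with group means from 4.39 to 5.18 against a median of 6.86 over all genes. Ncr1 fell over both treatments too, by 0.46 ± 0.11 (adjusted p = 0.0105). Il1r1, the 1 of 5 above 0 under vehicle, differed by 0.29 ± 0.12 there (adjusted p = 0.289) and by 0.01 ± 0.11 under ICA (adjusted p = 0.986).

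These counts moved with single mice. With 1 mouse left out, the B cell markers called under vehicle numbered 0 to 5, with 0 (and so no call of Cd79a) without mouse 1 or 4 of the marrow-only or mouse 2 or 3 of the T cell group on vehicle. The macrophage markers numbered 1 to 6, with 1 without mouse 3 of the marrow-only or mouse 3 or 4 of the T cell group on vehicle, and the T cell markers 2 to 5, with 2 without mouse 2 or 3 of that T cell group. The call of Il23r under vehicle was lost without mouse 1, 2 or 4 of either vehicle group, and also with only the 2 groups compared. Under ICA 2 to 6 B cell, 1 to 4 macrophage, 0 to 2 dendritic cell and 2 to 3 T cell markers were called with 1 mouse left out. Over both treatments 6 to 7 B cell, 6 to 10 macrophage and 4 to 6 T cell markers were called. Of all genes 7.21% were called over both treatments with all mice.

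With group means taken out, H2-Aa, H2-Ab1 and H2-Eb1 correlated over all mice with the macrophage mean at r of 0.65, 0.75 and 0.82. With the T cell mean r was 0.61, 0.79 and 0.81, and with the dendritic cell mean 0.44, 0.61 and 0.59. With the mean of the genes from interferon gamma to Ciita it was 0.48, 0.67 and 0.71. With the B cell mean it was -0.06, 0.02 and -0.01. H2-Oa and H2-Ob correlated with the B cell mean at 0.76 and 0.65, with the macrophage mean at 0.28 and -0.02 and with the T cell mean at 0.12 and -0.16. With the dendritic cell mean their r was 0.42 and 0.37, and with the type 3 innate lymphoid cell mean 0.03 and 0.43. With the mean of the genes from interferon gamma to Ciita it was -0.13 and -0.46. Their r with the enterocyte mean was 0.19 and 0.15, against -0.73, -0.69 and -0.51 for the 3 chain genes. With the ileum mean it was 0.34 and 0.40, against -0.65, -0.68 and -0.53 for the chain genes. Ciita had r of 0.70 with the macrophage, 0.77 with the T cell, 0.48 with the dendritic cell and -0.16 with the B cell mean. With the enterocyte and ileum means its r was -0.72 and -0.82. The part of these cell markers in the class II differences was not tested. Markers of epithelium and ileum were present in all groups: Vil1, a brush border protein, had group means from 12.07 to 12.23, and Fabp6, the ileal bile acid binding protein, from 12.20 to 12.49. Others of these markers moved with the graft. Of 10 enterocyte markers Sis, sucrase-isomaltase, rose under ICA by 0.79 ± 0.17 (adjusted p = 0.01) and differed by 0.40 ± 0.19 under vehicle (adjusted p = 0.371). Of 5 ileum markers Cubn, an endocytic receptor, rose under ICA by 1.78 ± 0.39 (adjusted p = 0.0136) and differed by 0.65 ± 0.44 under vehicle (adjusted p = 0.594). The marrow-only ICA mice were lowest on average and most spread, with Cubn from 8.58 to 11.91, Sis from 11.35 to 12.67 and Alpi, intestinal alkaline phosphatase, from 10.33 to 12.28. The enterocyte mean ranged from 11.17 to 11.44 in marrow-only and 11.42 to 11.52 in T cell mice on vehicle, and from 10.76 to 11.53 and 11.26 to 11.48 on ICA. The part of these epithelial levels in the class II differences was not tested.

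**Figure D4:**
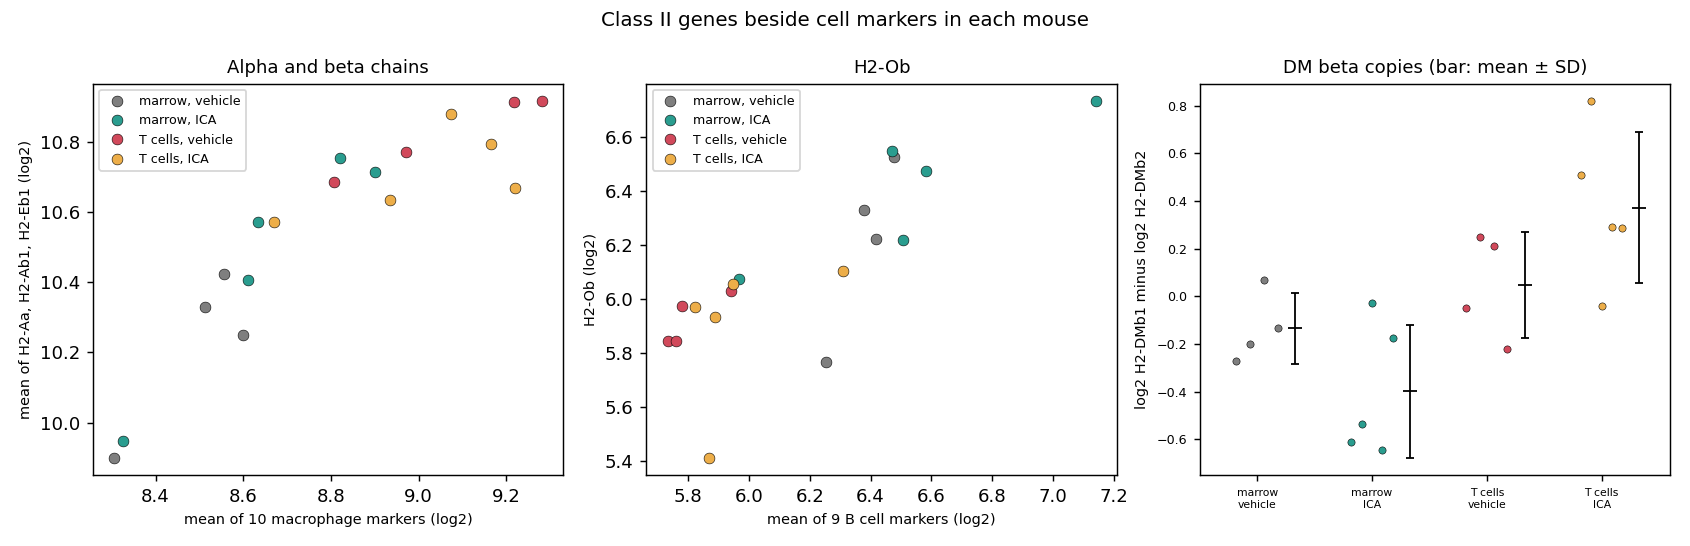
Left, mean log2 of H2-Aa, H2-Ab1 and H2-Eb1 (y) against the mean of 10 macrophage markers (x) in 18 mice. Middle, H2-Ob (y) against the mean of 9 B cell markers (x). Right, log2 H2-DMb1 minus log2 H2-DMb2 in each mouse by group with mean ± SD, lowest in marrow-only mice given ICA and highest in T cell mice given ICA.

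The DM beta copies shifted against each other. The log2 value of H2-DMb1 minus that of H2-DMb2 averaged -0.40 ± 0.28 (SD, n = 5) under ICA without T cells, where it ran from -0.64 to -0.03, and 0.37 ± 0.32 (SD, n = 5) under ICA with T cells, where it ran from -0.04 to 0.82. Under vehicle the groups were closer, at -0.14 ± 0.15 (SD, n = 4) and 0.05 ± 0.22 (SD, n = 4). The pair was singled out after its values were seen, and no test is given. As near-identical copies, they may share probe signal.

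Other genes of the pathway were read from lists of known function. Of 10 genes of invariant chain and antigen processing, 1 rose and 0 fell under vehicle, 1 rose under ICA and 4 rose over both treatments. Of all genes 1.47%, 3.12% and 7.21% were called in these comparisons. Ctsl, cathepsin L, a protease that trims the invariant chain in thymic epithelium, rose under vehicle by 0.47 ± 0.09 (adjusted p = 0.00646), from 9.56 ± 0.04 to 10.03 ± 0.14 (SD, n = 4 each). Ctss, cathepsin S, which does so in B cells and macrophages, rose under ICA by 0.35 ± 0.08 (adjusted p = 0.0248), a call lost without mouse 2 or 5 of either ICA group, and differed by 0.34 ± 0.09 under vehicle (adjusted p = 0.0739). Over both treatments Ctsd and Ctsh, further endosomal proteases, rose by 0.30 ± 0.07 and 0.31 ± 0.08 (adjusted p = 0.0121 and 0.0267).

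The factors that bind the class II promoter did not pass the test in any comparison (0 of 7, limma). Under vehicle 1 of 7 had an unadjusted p under 0.05, against 13% of all genes. Nfya, a subunit of the Y box factor, differed by -0.24 ± 0.09 (adjusted p = 0.239) and Rfxap, a subunit of the X box factor, by 0.13 ± 0.09 (adjusted p = 0.61). Of the 7 measured genes from interferon gamma to Ciita none was called either. Here too 1 of 7 had an unadjusted p under 0.05 under vehicle (13% of all genes). Ifng was 0.69 ± 0.31 higher with T cells under vehicle (adjusted p = 0.341) and Jak2, a kinase of its receptor, 0.17 ± 0.10 (adjusted p = 0.504). Of 7 genes of class II turnover and costimulation none was called, with 2 of 7 under an unadjusted p of 0.05 under vehicle (13% of all genes). Icosl, the ligand of the T cell costimulator ICOS, differed by 0.31 ± 0.13 (adjusted p = 0.285) and Marchf1, a ubiquitin ligase that removes class II from the surface, by 0.26 ± 0.11 (adjusted p = 0.289).

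The 8 genes outside the set whose deviations from the group mean over the 18 mice were most like those of the mean of H2-Aa, H2-Ab1 and H2-Eb1 were Gm1966, Gpr132, Rasgrp1, Pilra, Ssr2, Laptm5, Clic1 and Cd52, with r from 0.91 to 0.94. Laptm5, a lysosomal membrane protein of blood cells (r = 0.92), Gm1966 (r = 0.94) and Rasgrp1 (r = 0.93) also lay higher with T cells under vehicle. For all 8 genes only the differences of group means are given, with no test. The differences of Laptm5, Gm1966 and Rasgrp1, 0.51, 0.49 and 0.48, were about that of H2-Eb1 (0.49), which was not called. Gpr132 and Cd52 differed by 0.27 and 0.25. Ssr2, a subunit of the translocon complex of the endoplasmic reticulum (r = 0.92), did not share the group differences (-0.19 under vehicle, -0.27 under ICA). Neither did Clic1 (-0.08 and -0.48) or Pilra (-0.02 and -0.12).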

How the data were processed

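The authors hybridised total RNA of 18 ilea to Affymetrix arrays. Per the submitters' processing notes RMA, Partek and GenomeStudio were used; the sources used here do not give filters, background step or log base. The deposited values were taken as log2, since they run from 1.29 to 14.08 and array medians lie between 6.47 and 6.51. Symbols came from the platform annotation (23521 of 41345 probe sets with 1 symbol, 1814 with several, 16010 with none), and a gene took its brightest probe set with 1 symbol.

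One limma 3.58.1 model (R 4.3.3) with a mean per group and a trended prior was fitted to 22180 genes, with 14 residual degrees of freedom and two-sided p adjusted by Benjamini and Hochberg over all genes and called under 0.05. It was also run on simulated data with 200 changed genes, and the outcome of that run is not reported here. Members, lists and alternatives were chosen with earlier results of these data known. Of 110 list entries 98 were measured. Genes named outside the members were those called, or else the 2 with the smallest p under vehicle, per pathway list, examples of marker lists, and the 8 most alike in pattern; the pattern rule took the mean of H2-Aa, H2-Ab1, H2-Eb1 and Cd74, which was computed without Cd74 because it has no value. Alternatives were each mouse left out, only the groups compared, a replicate block, 3 arrays left out, further normalizations, filters on low values, other priors and array weights. The number of mice limits the precision. A mouse is a biological replicate per the labels.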

Additional observations from a re-analysis of the deposited data

Results flagged for a closer look

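Of 40 combinations of a class II gene (9 members and H2-Ea) and a group, 4 had 1 mouse far from the others of its group, and chance flags about 1 in 20 such groups. H2-Aa was 10.75 in T cell ICA mouse 3, where the next mouse was at 10.49. H2-Eb1 was 8.61 in marrow-only ICA mouse 1, with the next mouse at 9.22. H2-Ob was 5.41 in T cell ICA mouse 2, with the next at 5.93, and H2-Ea was 10.47 in T cell vehicle mouse 2, with the next at 10.85. Without T cell ICA mouse 2, the T cell difference of H2-Ob under ICA was -0.39 (adjusted p from limma = 0.161). No member differed in its T cell effect between vehicle and ICA by a called interaction.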

How the results depend on the processing

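Of 60 class II gene differences (9 members and H2-Ea in 6 comparisons), 5 were called. None of the 5 turned sign in any setting run for it (up to 29, of them 18 omissions of 1 mouse), and 3 missed the threshold in at least 1. Of the 55 others, 5 were called in at least 1 setting and 7 turned sign in at least 1. H2-Eb1 over both treatments missed the threshold with median centring, without the trend and with a robust prior (highest adjusted p = 0.0642). The number of members called under vehicle, 1 as reported, was 4 with only the 2 groups compared, 3 without the 3 arrays set apart, 3 with array weights, and 1 to 3 with 1 mouse left out (3 without marrow-only ICA mouse 1). Under ICA it was 0 as reported, 2 without the 3 arrays, 2 with a further quantile normalization, 2 with median centring, 1 among genes above the median level (which leave out H2-Oa and H2-Ob), and 0 to 1 with 1 mouse left out. The single call came without mouse 1 or 3 of the marrow-only ICA group, mouse 3 of the marrow-only vehicle group or mouse 3 of the T cell ICA group. Over both treatments it was 4, and 1 to 4 with 1 mouse left out, 1 without T cell vehicle mouse 3 and 2 without mouse 2 of that group, mouse 4 of the marrow-only ICA group or mouse 2, 3 or 4 of the marrow-only vehicle group. The ICA comparisons and the interaction gave 0 members in all settings. With mouse number as a replicate block, 1, 0 and 4 members were called in the graft comparisons, as without it. The labels state no pairing, and same-numbered mice correlated between -0.14 and 0.17. Mice correlated best with their own number in 1 of 4, 2 of 5, 1 of 4 and 0 of 4 cases over the pairs of groups. The block changed no call of a member, while over all genes 382 were called under vehicle with it and 327 without it. The cause of these shifts was not tested. All genes called under vehicle, 327 as reported, numbered 94 without marrow-only vehicle mouse 4 and 1074 with array weights.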
